A study of Mus musculus with 26 samples.

Results

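DNA replication and cell division genes are the genes whose products license and fire replication origins, copy DNA, supply nucleotides, drive cells from G1 into S phase and carry them through mitosis. A fixed set of 43 such genes was followed here, of 21938 mouse protein-coding genes, chosen by gene name and sorted into 7 roles. The set holds 5 genes of origin licensing, 7 MCM proteins, 3 factors of helicase activation, 5 clamp and polymerase genes, 3 genes of nucleotide supply, 7 genes of G1 and S control and 13 genes of mitosis.

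The data came from TrkC neurons, the future proprioceptive neurons of the dorsal root ganglia (DRG), taken from mouse embryos at E11.5. Per the labels, cells were sorted by GFP from embryos carrying BacE-GFP, a reporter on a bacterial artificial chromosome that spans the Runx3 locus, so cells sorted this way are those of the DRG that expressed the reporter. The study's methods add that in 2 experiments TrkC+ neurons of GFP+ or WT mice were instead isolated on magnetic beads with an antibody to TrkC, and the labels do not say which samples these were. Embryos were pooled, and the labels give every sample the same age and tissue and name no Runx3-deficient group. Open chromatin was mapped by ATAC-seq in 3 samples. CUT&RUN, in which an antibody directs MNase to cut DNA at the bound protein, was run for H3K27Ac in 5 samples, Runx3 in 8, Brn3a in 2 and Isl1 in 3, with normal rabbit serum in 5 samples as the control for peak calling. H3K27Ac is an acetylation of histone H3 found at active promoters and enhancers. Runx3, Brn3a and Isl1 are transcription factors of these neurons.

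The values are consensus peak lists, 1 for each assay, of regions found in at least 2 of 3 ATAC samples, 3 of 5 H3K27Ac samples, 4 of 8 Runx3 samples, 2 of 2 Brn3a samples and 2 of 3 Isl1 samples. They hold 64227 ATAC, 32655 H3K27Ac, 13443 Runx3, 32823 Brn3a and 16035 Isl1 peaks on mm10. A peak is present or absent, with no height and no value per sample, so no spread between replicates and no test could be had, and every share below is a description. A peak list of bulk cells also does not tell how many of the cells carried the open state, and RNA is not among the measurements used here. Promoter peaks are those with a midpoint up to 1 kb from any annotated transcription start site (TSS) of the gene, and peaks of a gene are those in its body or within 10 kb of it. The peaks nearest the limits were an H3K27Ac peak 1000 bp from a Ccnd2 TSS on the inside and an ATAC peak 1012.5 bp from an Mcm6 TSS on the outside, and for the flank an Aurka H3K27Ac peak at 9983.5 bp and an Rrm2 H3K27Ac peak at 10190.5 bp.

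Cells copy their DNA once per cycle. Origins are licensed when ORC, Cdc6 and Cdt1 load the MCM helicase, which is later switched on by Cdc45 and GINS so that polymerases can follow. E2F factors, held in check by the retinoblastoma family in resting cells, bind E2F motifs in promoters of S phase genes, and mitotic genes often carry a cell cycle homology region (CHR) beside CCAAT boxes. Neurons leave the cycle for good as they differentiate.

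Promoter sequences carry these elements, and a few are shown so that the letters can be read beside the peaks. RefSeq promoters (GRCm38.p6, 250 bases before to 50 after the start) were matched to 33 of the 43 genes. Those without an entry are Gmnn, Mcm4, Gins1, Gins2, Pole, Ccnd1, Ccnd2, Ccne2, Ccna2 and Aurkb. In the S phase promoters below, matches to the E2F letters TTTCCCGC, TTTGGCGC, TTTCGCGC or TTTGCCGC on either strand are in capitals. Mcm6 is shown because it had the most matches and no Runx3 peak, and Mcm5 because it had matches and a Runx3 peak.
Mcm6 promoter, chr1:128359656-128359955, - strand: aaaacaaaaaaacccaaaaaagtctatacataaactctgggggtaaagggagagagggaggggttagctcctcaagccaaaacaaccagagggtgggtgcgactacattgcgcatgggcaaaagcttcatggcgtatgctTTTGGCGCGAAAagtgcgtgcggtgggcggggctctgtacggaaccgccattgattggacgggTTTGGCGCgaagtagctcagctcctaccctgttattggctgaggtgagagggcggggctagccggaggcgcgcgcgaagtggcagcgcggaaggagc
Mcm5 promoter, chr8:75109259-75109558, + strand: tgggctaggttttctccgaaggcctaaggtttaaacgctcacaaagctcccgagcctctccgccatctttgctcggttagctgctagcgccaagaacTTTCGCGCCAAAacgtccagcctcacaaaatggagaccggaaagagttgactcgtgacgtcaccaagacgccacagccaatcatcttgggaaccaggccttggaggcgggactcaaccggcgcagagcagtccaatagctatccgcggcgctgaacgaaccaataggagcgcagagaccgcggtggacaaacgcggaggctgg

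In the mitotic promoters below, CHR letters (TTTGAA) and CCAAT on either strand are in capitals. Top2a had the most CCAAT matches, Mki67 encodes the Ki-67 proliferation antigen, and Cdk1 is the main kinase of mitotic entry.
Top2a promoter, chr11:99024140-99024439, - strand: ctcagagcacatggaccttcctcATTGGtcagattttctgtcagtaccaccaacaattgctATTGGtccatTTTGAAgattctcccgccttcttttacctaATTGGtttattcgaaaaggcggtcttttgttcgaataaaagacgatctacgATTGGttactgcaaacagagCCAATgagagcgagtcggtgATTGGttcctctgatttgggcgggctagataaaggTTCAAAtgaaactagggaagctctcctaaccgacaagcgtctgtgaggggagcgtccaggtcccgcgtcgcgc
Mki67 promoter, chr7:135716330-135716629, - strand: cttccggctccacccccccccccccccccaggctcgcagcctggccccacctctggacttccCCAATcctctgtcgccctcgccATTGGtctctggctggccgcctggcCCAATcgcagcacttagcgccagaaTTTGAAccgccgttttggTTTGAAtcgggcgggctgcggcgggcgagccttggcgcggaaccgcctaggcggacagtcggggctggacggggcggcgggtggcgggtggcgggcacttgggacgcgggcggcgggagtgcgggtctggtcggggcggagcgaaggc
Cdk1 promoter, chr10:69352863-69353162, - strand: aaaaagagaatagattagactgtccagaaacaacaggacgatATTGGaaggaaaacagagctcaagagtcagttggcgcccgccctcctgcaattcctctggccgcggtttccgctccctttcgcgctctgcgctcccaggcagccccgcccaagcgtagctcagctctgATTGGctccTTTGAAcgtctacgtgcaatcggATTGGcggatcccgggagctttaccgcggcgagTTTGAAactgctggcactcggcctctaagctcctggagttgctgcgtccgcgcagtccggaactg

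All 43 genes had an ATAC peak in the promoter, where 64.8% of all protein-coding genes had one. The peak reached over an annotated TSS in 42 of them, the exception being E2f2, whose 4 promoter peaks lay beside its start sites. H3K27Ac was present in the promoters of 42 genes, against 58.3% of all protein-coding genes, and both marks were present in 42, against 57.2%. The promoters of these replication and division genes were therefore listed as open and, but for 1, acetylated in the isolated neurons.

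The gene without the acetylation was Pole, the catalytic subunit of the leading strand polymerase. Its promoter, shared with Pxmp2, held an ATAC peak of 391 bp with its midpoint 36.0 bp upstream of the TSS, and no peak of H3K27Ac, Runx3, Brn3a or Isl1. The H3K27Ac peak counted to the gene was 735 bp wide and lay in the flank, at the promoter of P2rx2.

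The ATAC and H3K27Ac lists give no graded quantity other than the width of a peak. The widest promoter ATAC peak of each of the 43 genes ran from 210.0 bp at Ccnd1 to 812.0 bp at Ccne2 with a median of 363.0 bp, and the median over all open promoters was 397.0 bp. For H3K27Ac the range was 341.0 bp at Bub1 to 2282.0 bp at E2f1, with a median of 1137.5 bp against 1173.0 bp over all marked promoters. The plot of promoter peaks by gene shows the same arrangement at most genes, a short ATAC peak at the start inside a longer acetylated stretch.

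**Figure D1:**
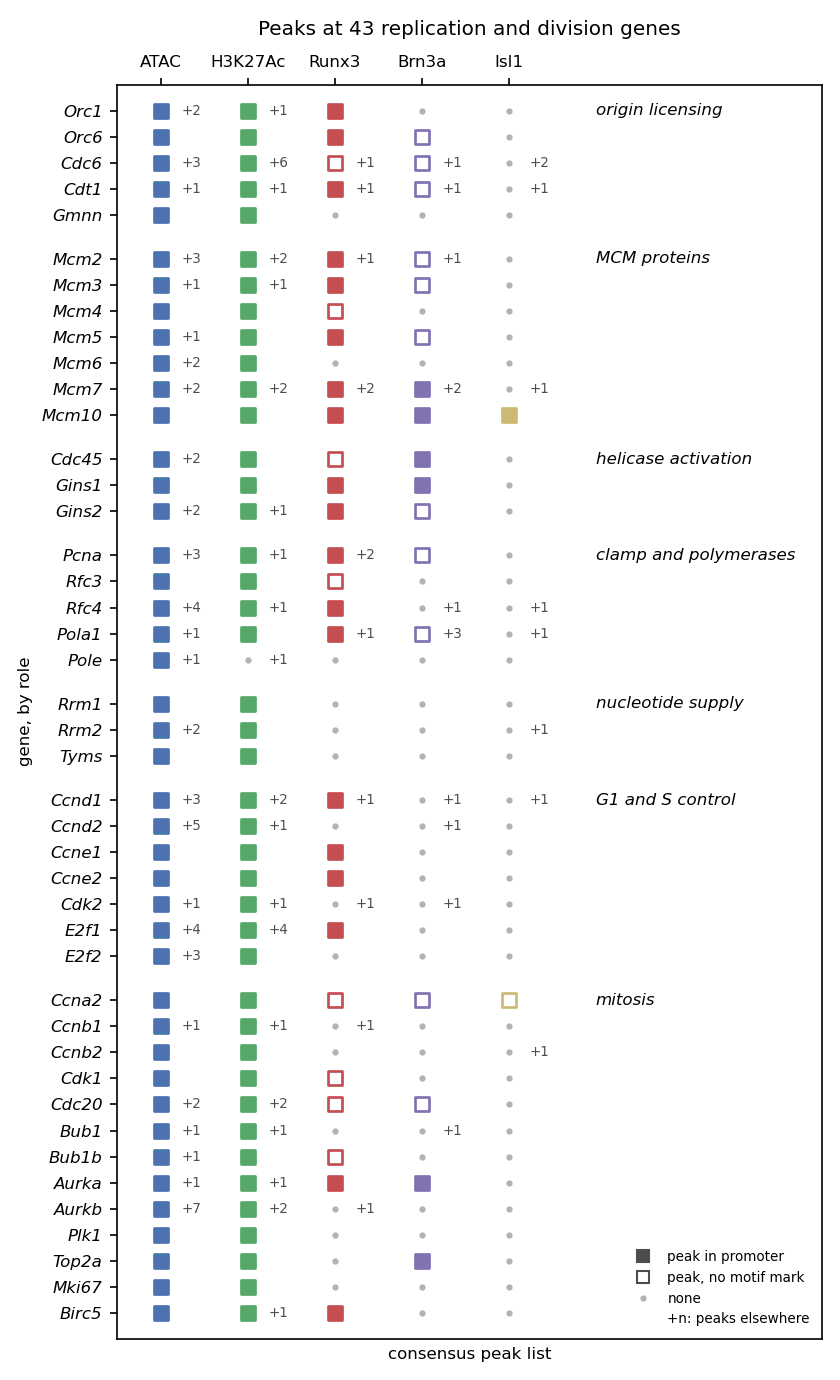
Presence of consensus peaks (columns) at each of the 43 genes (rows, by role). A square is a peak in the promoter, an open square a Runx3, Brn3a or Isl1 promoter peak without its motif mark (ATAC and H3K27Ac lists carry no motif mark), a dot no promoter peak, and +n the number of further peaks in the gene body or within 10 kb; all 43 genes have an ATAC square and 42 an H3K27Ac square, while 27, 17 and 2 have a Runx3, Brn3a or Isl1 square.

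**Figure D2:**
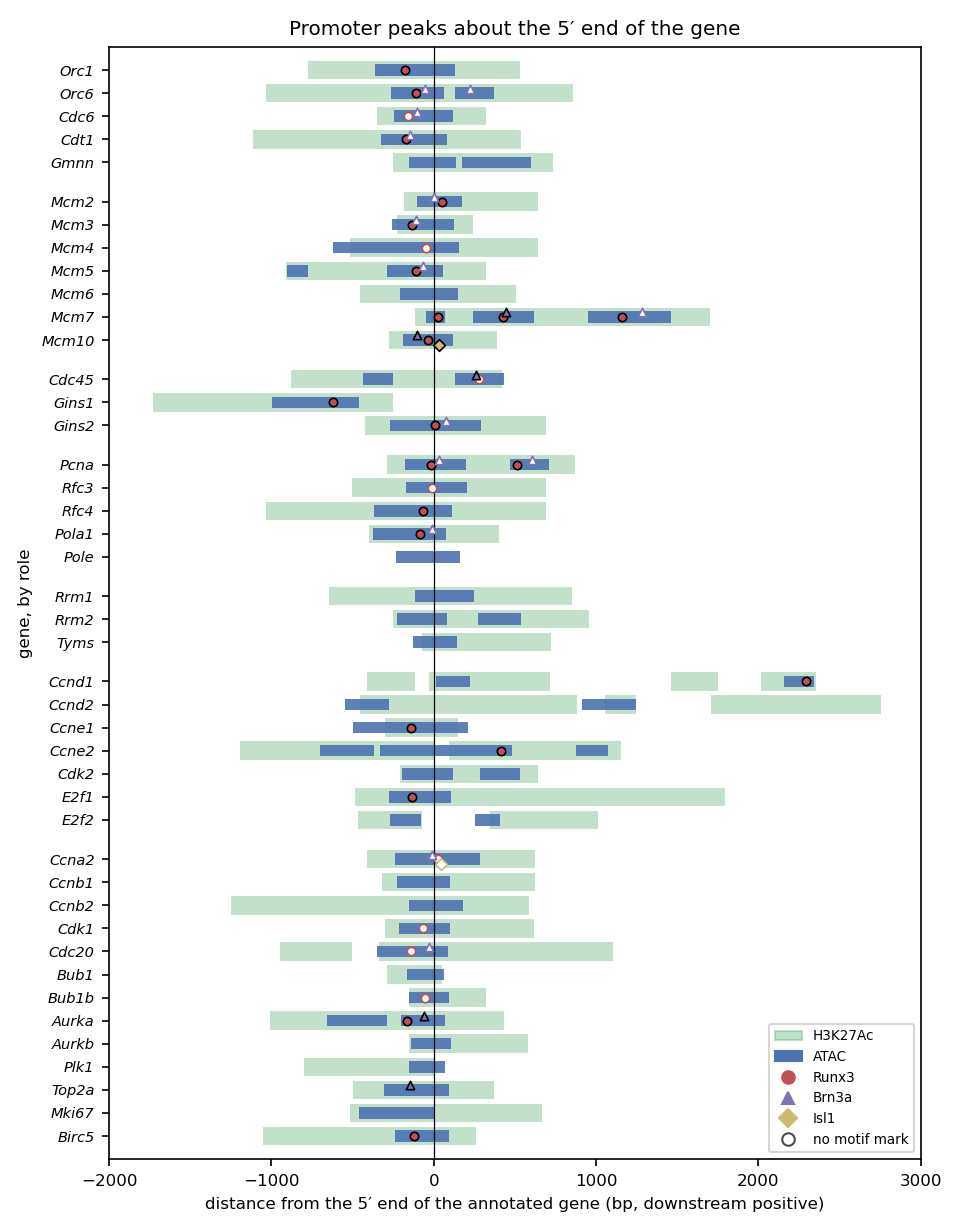
Promoter peaks of each gene along the distance in bp from the 5′ end of the annotated gene, with bars for the extent of H3K27Ac (pale) and ATAC (dark) peaks and symbols for the midpoints of Runx3, Brn3a and Isl1 peaks (open without the motif mark). Peaks far to the right of 0 belong to later start sites of the same gene, and 7 peaks of Mcm2, Gins1 and E2f2 lie beyond the plotted range; most ATAC bars sit at 0 inside an H3K27Ac bar.

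Runx3 peaks lay in the promoters of 27 of the 43 genes, a share of 62.8%, against 27.1% of all protein-coding genes and 46.2% of the 12547 genes whose promoters had both ATAC and H3K27Ac. In 19 genes, or 44.2%, a promoter Runx3 peak held the RUNX binding site (RBS) by the list, against 17.9% of all protein-coding genes and 30.4% of the open and acetylated ones. Brn3a peaks lay in 17 promoters, or 39.5%, against 22.2% and 36.7%, and Isl1 peaks in 2 promoters, or 4.65%, against 5.42% and 8.38%. The Brn3a and Isl1 shares were thus within a few percentage points of those of open and acetylated genes in general, and the Runx3 share was above it, with no test made.

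The 27 genes carried 30 promoter Runx3 peaks, and all 30 overlapped both ATAC and H3K27Ac, as did 96.8% and 95.1% of the 5766 Runx3 promoter peaks of all genes. An RBS was present in 22 of the 30, or 73.3%, against 64.4% over all genes. A Brn3a peak overlapped 17 of the 30, or 56.7%, against 52.0% over all genes, and an Isl1 peak overlapped 2. Of the 20 Brn3a promoter peaks, 17 overlapped a Runx3 peak, a share of 85.0% against 61.1% over all genes, and 6 carried the V$BRNF motif, a share of 30% against 29.0%.

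Seen by gene, 16 promoters had both Runx3 and Brn3a, 11 had Runx3 alone of the factors, 1 had Brn3a without Runx3, and 15 had none. Both promoters with Isl1, Mcm10 and Ccna2, also had Runx3 and Brn3a. Across all protein-coding genes, including those without promoter ATAC, 65.6% of promoters had none of the factors. Of the 76 cytosolic ribosomal protein genes, taken up further on, 31 had both Runx3 and Brn3a and 10 had Runx3 alone. Brn3a without Runx3 was at 11 of those 76, and 22 had none. Shares of these combinations over open promoters in general are not given here, and the split was not tested.

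Letters of RBS are printed for genes whose Runx3 peak held them, with the motif on the strand that holds it in capitals and 12 bases on each side. Over the 19 genes the promoter Runx3 peaks held 28 such matches, on either strand, of which 10 had the form GCCGCA, while 8 had the form ACCACA, a further 7 had the form GCCACA and the last 3 had the form ACCGCA. The set shown covers licensing, helicase, G1 and S, and mitotic genes, and Birc5 is shown in full because its 1 peak held 3 matches.
Orc6, chr8:85299459-85299488, + strand: gcgactccggggACCACAagcagcagcgcc
Mcm3, chr1:20820496-20820525, - strand: gaggtgggaaggACCACAactcccagaatg
Mcm10, chr2:5012821-5012850, + strand: cggaactcttggACCACAcagatccttggc
Ccne1, chr7:38107567-38107596, + strand: ccctcagcggccGCCGCAggcccggggccc
E2f1, chr2:154569958-154569987, - strand: cctgccccgcacGCCGCAaccaatgctcgc
Birc5, chr11:117849103-117849132, + strand: tagcaagaaggaACCGCAgcagaaggtaca
Birc5, chr11:117849265-117849294, - strand: gggcggaggcgcGCCGCAgagcatgccggg
Birc5, chr11:117849324-117849353, - strand: catgatggcgtcACCACAacctccgccaag

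Origin licensing genes had Runx3 in 4 of 5 promoters. Orc1 and Orc6 encode subunits of the origin recognition complex. The Runx3 peak of Orc1, 402 bp wide with 1 RBS, lay 178.5 bp upstream of its TSS, and that of Orc6, 224 bp wide with 1 RBS, lay 111.5 bp upstream. Both promoters are shared with a neighbour, Prpf38a for Orc1 and Vps35 for Orc6, and the Orc6 promoter also had 2 Brn3a peaks, neither with the motif. Cdt1, a loader of MCM, had a Runx3 peak with 2 RBS 168.0 bp upstream overlapping a Brn3a peak, and Cdc6, the other loader, had a Runx3 peak without RBS 161.5 bp upstream that also overlapped Brn3a. Gmnn, whose product geminin blocks Cdt1, had 2 ATAC peaks and an H3K27Ac peak of 987 bp with none of the factors.

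Of the 7 MCM genes, 6 had Runx3 in the promoter and Mcm6 had none. Mcm2, Mcm3, Mcm5, Mcm6 and Mcm7, with Mcm4, encode the ring of the replicative helicase, and Mcm10 encodes a separate factor that helps to start it. Runx3 midpoints lay between 135.5 bp upstream (Mcm3) and 25.5 bp upstream (Mcm2) at these genes other than Mcm7, whose 10 transcripts start at scattered points. The Mcm7 promoters, shared with Ap4m1, held 3 Runx3 peaks with 5 RBS in all, the most among the 43 genes, 3 ATAC peaks and 2 Brn3a peaks. Mcm5 had 2 RBS in its Runx3 peak, Mcm4 had none, and Mcm2, Mcm3 and Mcm10 had 1 each. Mcm6 had an ATAC peak of 360 bp and an H3K27Ac peak of 964 bp, and no peak of the 3 factors in its body or flank.

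At Mcm10 the peaks of all 3 factors met within an open and acetylated promoter. The Runx3 peak (313 bp, 1 RBS), the Brn3a peak (170 bp, with V$BRNF) and the Isl1 peak (219 bp, with V$LHXF) each carried the motif of the factor. They share a stretch of 58 bp, printed here with its RBS in capitals.
Mcm10 promoter, chr2:5012812-5012869, + strand: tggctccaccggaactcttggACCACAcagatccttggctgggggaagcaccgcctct

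All 3 genes of helicase activation had Runx3 and Brn3a promoter peaks. Cdc45 travels with the active helicase, and its promoter, shared with Ufd1, held a Runx3 peak without RBS and a Brn3a peak with V$BRNF that overlapped. Gins2 encodes a subunit of GINS, and it had a Runx3 peak of 466 bp with 1 RBS 9.5 bp downstream of the TSS. Gins1 encodes another subunit. At Gins1 the Runx3 peak lay 621.5 bp upstream, 37.5 bp from the TSS of Abhd12, and the Brn3a peak lay at a later Gins1 start site, so the pair did not overlap.

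Among the clamp and polymerase genes, Pcna, Rfc3, Rfc4 and Pola1 had Runx3 in the promoter and Pole did not. Pcna encodes the sliding clamp. It had 2 promoter Runx3 peaks, 18 bp upstream and 167.0 bp downstream of TSSs, each with 1 RBS and each with an overlapping Brn3a peak. Rfc3 and Rfc4 encode subunits of the clamp loader, and their Runx3 peaks, 9.5 bp and 67 bp upstream, held 0 and 1 RBS and no Brn3a. Pola1, the catalytic subunit of the priming polymerase, had a Runx3 peak with 1 RBS 82.0 bp upstream and a Brn3a peak without the motif 13.5 bp upstream.

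None of the 3 genes of nucleotide supply had a promoter peak of any of the factors. Rrm1 and Rrm2 encode the subunits of ribonucleotide reductase and Tyms encodes thymidylate synthase. Their promoters were open and acetylated, with H3K27Ac peaks of 1499 bp, 1208 bp and 797 bp.

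In G1 and S control, Ccnd1, Ccne1, Ccne2 and E2f1 had Runx3 in the promoter, each with 1 RBS, and Ccnd2, Cdk2 and E2f2 did not. None of the 7 had Brn3a or Isl1 there. The D cyclins answer growth signals in G1, the E cyclins with Cdk2 start S phase, and E2f1 and E2f2 encode activating E2F factors. Runx3 lay 141.0 bp upstream at Ccne1, 28.0 bp downstream at Ccne2 and 131.5 bp upstream at E2f1, and 564.0 bp downstream of the nearest TSS at Ccnd1. Ccnd1 and Ccnd2 had several acetylated stretches, 4 and 3 promoter H3K27Ac peaks with 6 and 4 in body and flank together, and Ccnd2 had 7 ATAC peaks in all. E2f1 had the widest acetylated promoter of the set, at 2282 bp.

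Mitotic genes had Runx3 in 6 of 13 promoters, namely Ccna2, Cdk1, Cdc20, Bub1b, Aurka and Birc5, and only Aurka and Birc5 of these with RBS. Ccna2 encodes cyclin A, Cdc20 activates the anaphase promoting complex, Bub1b serves the spindle checkpoint, Aurka is a spindle pole kinase and Birc5 encodes survivin of the chromosomal passenger complex. In the other roles together 17 of 30 genes had a promoter Runx3 peak with RBS, against these 2 of 13. Other division genes, listed further on, had 14 of 32. The share was 17.9% of all protein-coding genes and 30.4% of the open and acetylated ones. For a promoter Runx3 peak with or without RBS, 46.2% of open and acetylated genes had one, beside the 6 of 13 mitotic genes. The difference between roles was not tested. At Ccna2, Runx3, Brn3a and Isl1 peaks shared 102 bp over the start site with no motif mark for any of the 3. Top2a, the topoisomerase that untangles mitotic chromosomes, was the 1 gene with Brn3a (145.5 bp upstream, with V$BRNF) and no Runx3. The cyclin B genes Ccnb1 and Ccnb2, the kinases Bub1, Aurkb and Plk1, and Mki67 had open and acetylated promoters with none of the factors.

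Taking gene bodies and 10 kb flanks, Runx3 peaks were found at 30 of the 43 genes, against 43% of all protein-coding genes, Brn3a peaks at 22, against 44.2%, and Isl1 peaks at 10, against 24.6%. As shares of the 43 genes these were 69.8%, 51.2% and 23.3%. Of the 12 Runx3 peaks outside the genes' own promoters, 8 lay in the promoter of a neighbour, such as Tpra1 beside Mcm2, Rab5b beside Cdk2 and Cops6 beside Mcm7. Likewise 5 of 13 Brn3a peaks and 2 of 9 Isl1 peaks away from the promoter were in neighbours' promoters.

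The 4 other distal Runx3 peaks were at Cdc6, Cdt1, Pola1 and Ccnd1. The Cdc6 site lay beyond the 3′ end of Cdc6, past a Rara TSS as seen from Cdc6. There a Runx3 peak with 2 RBS, a Brn3a peak with V$BRNF and an Isl1 peak without the motif overlapped in open, acetylated chromatin. The TSS nearest to this Runx3 peak, at 4562.0 bp, was that of Rara. Within Pola1, 19130.0 bp downstream of the nearest start site, peaks of the 3 factors overlapped with the motif of each and without ATAC or H3K27Ac. Both shared stretches are printed with RBS in capitals. The word flank in the first label refers to Cdc6, and the site is on the far side of the Rara TSS.
Cdc6 and Rara flank, chr11:98932320-98932500, + strand: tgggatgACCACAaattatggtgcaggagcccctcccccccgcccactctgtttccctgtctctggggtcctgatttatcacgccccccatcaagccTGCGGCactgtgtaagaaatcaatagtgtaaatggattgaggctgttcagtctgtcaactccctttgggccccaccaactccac
Pola1 gene body, chrX:93471734-93471907, + strand: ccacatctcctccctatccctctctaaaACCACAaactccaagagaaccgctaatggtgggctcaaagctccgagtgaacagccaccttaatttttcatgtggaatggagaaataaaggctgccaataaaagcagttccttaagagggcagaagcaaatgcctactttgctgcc

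Upstream of Cdt1, 2915.5 bp from its TSS, a Runx3 peak with 3 RBS overlapped an Isl1 peak with V$LHXF, again without ATAC or H3K27Ac. At Ccnd1, 1723.5 bp upstream, a Runx3 peak without RBS overlapped a Brn3a peak of 436 bp with V$BRNF in open and acetylated chromatin. The sites at Pola1 and upstream of Cdt1 were the 2 of the 42 Runx3 peaks at these genes that lay outside ATAC peaks.

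Other Brn3a and Isl1 peaks away from any promoter were single. Brn3a peaks with V$BRNF lay 7911.0 bp upstream of Rfc4, in the 3′ flank of Cdt1 and at 2 further places in the long Pola1 gene, and a Brn3a peak without the motif lay in Ccnd2. Isl1 peaks lay 8491.5 bp upstream of Rrm2 and in the 3′ flanks of Ccnb2 and Ccnd1, all without the motif and outside ATAC and H3K27Ac, and a motif-bearing one lay between Cdc6 and Rara.

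Motif letters were counted in the 33 matched promoters. Because 10 genes had no entry, under 80% of the set was covered and a check of promoter content over the whole set is void, so the counts describe the matched promoters only. E2F letters were found in 12 of 33, against 2.94% of 16538 protein-coding promoters, CHR letters in 10, against 15.6%, CCAAT in 26, against 38.8%, and RBS letters in 19, against 46.3%. In these 33 promoters no E2F match overlapped a CHR or RBS match, and CCAAT overlapped 1 E2F and 1 RBS match. A match of letters is a description and not a bound site.

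The plot of motif positions gives the E2F and CHR letters by role, and the difference between roles was not tested. E2F letters were in 11 of the 22 matched promoters outside mitosis (Orc1, Cdc6, Cdt1, Mcm3, Mcm5, Mcm6, Mcm7, Rfc3, Pola1, Cdk2 and E2f2) and in 1 of 11 mitotic ones, Cdk1. CHR letters were in 8 of 11 mitotic promoters (Ccnb2, Cdk1, Cdc20, Bub1b, Aurka, Plk1, Top2a and Mki67) and in 2 of 22 others, Mcm2 and Cdc45. CCAAT was in 10 of 11 mitotic and 16 of 22 other promoters.

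Runx3 peaks were seen beside either kind of promoter. Of the 21 matched promoters with a Runx3 peak, 9 held E2F letters and 6 CHR letters, and of the 12 without one, 3 and 4 did. The RefSeq window did not always lie at the peak. Its start was 350 bp from the 5′ end of the annotated gene at Cdc6, 466 bp at E2f1 and 539 bp at Mcm7. At Cdc6, Cdc45 and E2f1 the window did not overlap the promoter Runx3 peak, so letters under those peaks were not counted. RBS letters stood in the window of 13 of the 21 and of 6 of the 12, the latter including Mcm6, Rrm1, Rrm2, Bub1, Plk1 and Mki67. The ratio of observed to expected CpG had a median of 0.948 (0.433 to 1.077) in the 33 promoters, against 0.602 over all promoters and 0.778 over those with ATAC and H3K27Ac.

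**Figure D3:**
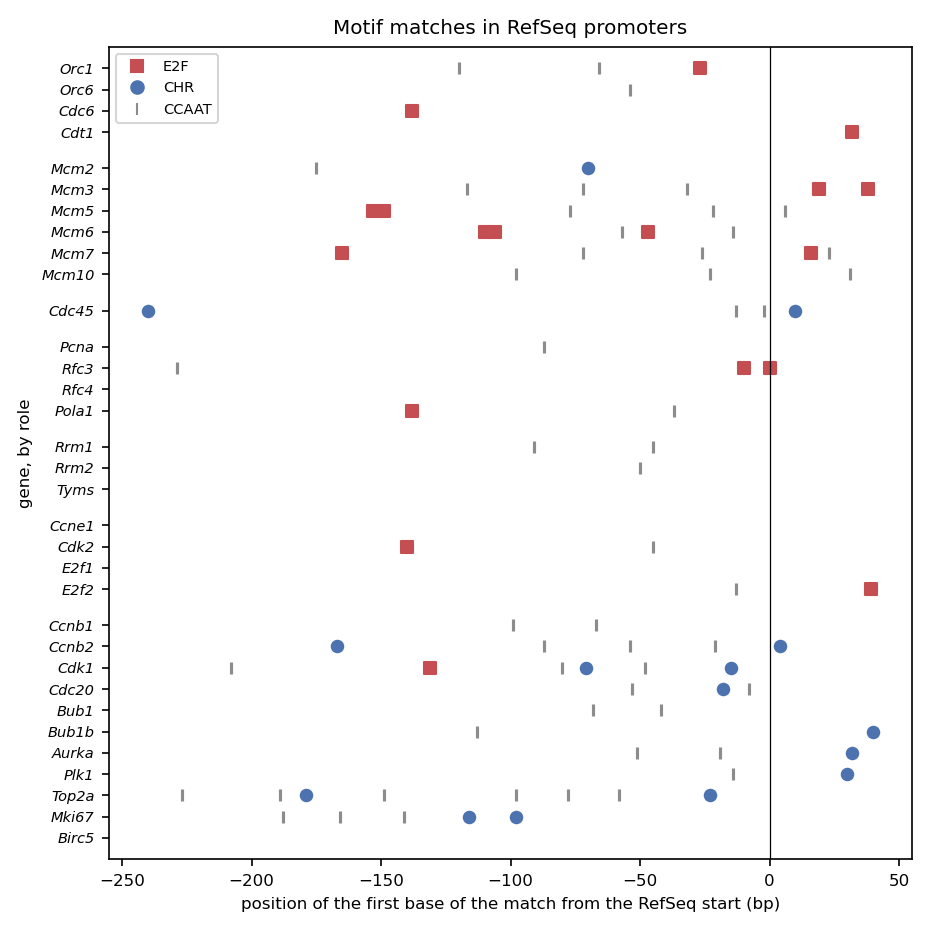
Positions of E2F (squares), CHR (circles) and CCAAT (ticks) letters in the 33 RefSeq promoters, by gene and role, in bp from the RefSeq start, which is at 0. E2F squares are in 11 of 22 promoters above the mitotic rows and CHR circles in 8 of 11 mitotic rows.

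Other genes of the same pathways were taken from a second list. Of 64 further replication and division genes, 64 had ATAC and 62 H3K27Ac in the promoter, the exceptions being Nuf2, of the kinetochore, and Pttg1, which encodes securin. Runx3 was in 42 of their promoters, 29 of these with RBS, Brn3a in 34 and Isl1 in 5. Their shares of 65.6% for Runx3 and 53.1% for Brn3a stood beside 62.8% and 39.5% in the 43 genes. The 76 cytosolic ribosomal protein genes, which every cell uses, had ATAC in 76, H3K27Ac in 75, Runx3 in 41, Brn3a in 42 and Isl1 in 10. Open and acetylated promoters, many with Runx3, were thus listed at ribosomal protein genes too. Of 28 genes of cell cycle exit, 28 had ATAC, 26 H3K27Ac, 16 Runx3, 10 Brn3a and 3 Isl1.

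**Figure D4:**
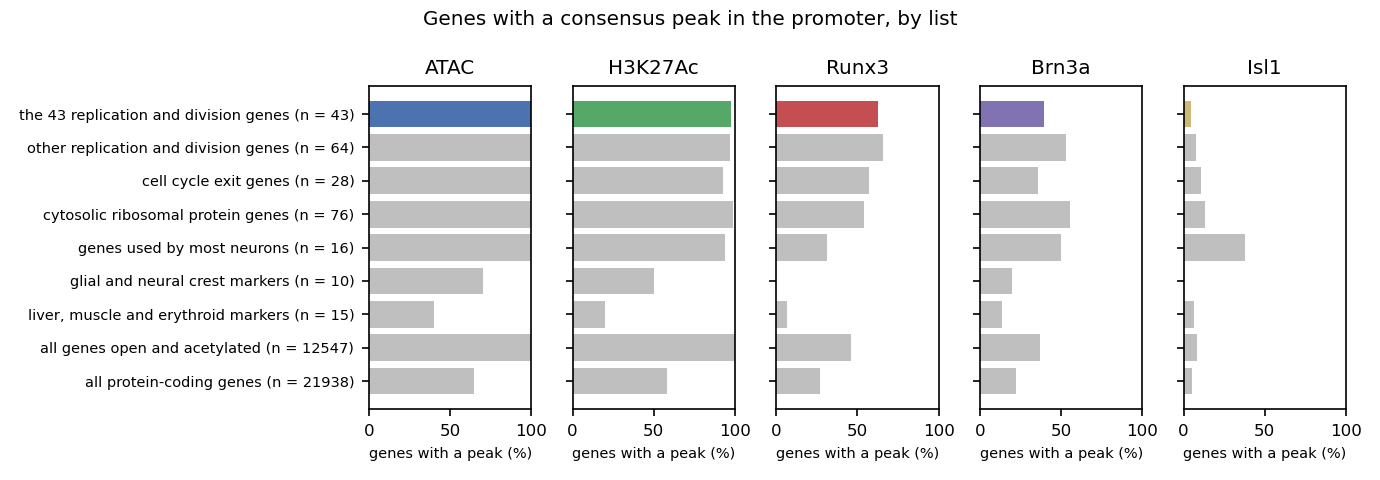
Percentage of genes (horizontal axes) with a promoter peak in each assay, for the 43 replication and division genes (coloured) and other lists (grey), with the number of genes in each list. ATAC is at 100% for the 43 genes and 64.8% for all protein-coding genes, and Runx3 at 62.8% and 27.1%.

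The lists were checked against markers of the cells. Ntrk3 and Runx3 mark TrkC neurons, and Pou4f1 (Brn3a) and Isl1 act in developing sensory neurons of the DRG more widely. These genes had ATAC in 4 of 4 promoters and H3K27Ac in 3, without Pou4f1. Of the genes used by most neurons, 16 of 16 had ATAC. Of 10 glial and neural crest markers, 7 had ATAC and 5 H3K27Ac, with the defining marker Sox10 at no peak of either, and of 15 liver, muscle and erythroid markers 6 had ATAC and 3 H3K27Ac. Promoter ATAC was therefore listed also at genes of other cell types, and the part of other cells among the isolated ones in the peaks at replication and division genes was not tested.

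Shared promoters touch 9 of the 43 genes, Orc1, Orc6, Mcm4, Mcm7, Cdc45, Gins1, Pole, Cdk2 and Aurka, where a TSS of another protein-coding gene lay within 1 kb and the peaks cannot be told apart between the pair. Runx3 was in the promoters of 7 of these 9 and of 20 of the other 34, a share of 58.8%. ATAC was in 34 of those 34 and H3K27Ac in 34.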

How the data were processed

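ATAC-seq and CUT&RUN peaks of E11.5 TrkC neurons were taken as the authors deposited them, as start and end on mm10 with a motif column for the transcription factors. Per the study's methods, reads were trimmed with Cutadapt, ATAC reads were aligned with Bowtie2 and duplicates removed with Picard 1.119, ATAC pairs up to 120 bp and CUT&RUN fragments up to 90 bp were kept, and peaks were called with MACS2, for CUT&RUN against normal rabbit serum. Peaks shared by at least 50% of replicates were kept, and CUT&RUN peaks lying over 60% in repeats were removed. The CUT&RUN aligner version is not given in the sources used here. Small fragments and the loss of repeat regions can hide broad or repeat-rich sites. The deposited lists pool replicates and give no depth, so depth is unknown and no interval was computed.

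Peaks were assigned to GENCODE M21 genes with Python 3.11.15, numpy 2.4.6 and pysam 0.24.0. For overlaps, ATAC peaks were widened to 500 bp and others to 300 bp, and 1 bp counted. RBS were recounted in the genome and equalled the list in 13443 of 13443 Runx3 peaks. The peak code was tested on simulated data and equalled a direct search in 300 of 300 cases. All 43 genes are given by role, and many of those with a Runx3, Brn3a or Isl1 peak are described further. Peaks in the promoters of neighbours, such as the Runx3 peaks near Ccnb1 and Aurkb, are given mostly as counts. The genes and lists were chosen with earlier results of these data known. Sequences were chosen after their matches were seen. Alternatives changed the promoter window, flank, start coordinate, peak width, overlap and motif window.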

Additional observations from a re-analysis of the deposited data

How the results depend on the processing

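Of 52 alternative values, 43 were within 1.5 times the reported one, among them every promoter count of ATAC, H3K27Ac and Runx3. These gave 43 genes throughout for ATAC, where the share of all protein-coding genes ran from 58.5% to 66.7%. They gave 36 to 42 for H3K27Ac and 18 to 27 for Runx3. Both were lowest with only peaks at least as wide as the list's median. The shares there were 83.7% against 47.6% of all protein-coding genes for H3K27Ac, and 41.9% against 16.1% for Runx3. Genes with a Brn3a peak in the body or 10 kb of it went from 22 to 10 with only peaks at least as wide as the list's median (23.3%, against 25.9% of all protein-coding genes), to 9 with no flank (20.9% against 24.4%) and to 11 with only motif-bearing peaks (25.6% against 26.6%). Genes with an Isl1 peak went from 10 to 2 (4.65% against 13.7%), 3 (6.98% against 16.1%) and 5 (11.6% against 17.8%) under the same settings, to 6 where the nearest TSS had to be that of the gene (14.0% against 19.3%), and to 21 with a flank of 50 kb (48.8% against 45.4%). Brn3a and Isl1 shares at these genes were thus below those of all genes in each of these settings but the last. In the settings where the Brn3a count stayed within 1.5 times, its share was above that of all genes, as in the reported one (51.2% against 44.2%). It was 76.7% against 67.8% with a flank of 50 kb, and 44.2% against 34.7% where the nearest TSS had to be that of the gene. Promoters with E2F letters fell from 12 to 7 of 33 with 100 bases before the start (21.2% against 1.58%). A stricter peak threshold and leaving out each replicate were not run, since the lists pool the replicates and hold no scores. No paired analysis was possible because the result comes from no test and the pooled lists carry no replicate numbers. Depth behind the peaks is unknown, so a missing peak is not shown to be an absence of binding or of open chromatin.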

Other observations

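The list of genes of cell cycle exit also holds regulators that act in dividing cells, such as Ccnd3 and E2f3. Of its 7 CDK inhibitor genes, 7 had ATAC and 5 H3K27Ac in the promoter, without Cdkn2a and Cdkn2b, which share a locus, and 2, Cdkn1c and Cdkn2d, had a Runx3 peak, a share of 28.6% against 27.1% of all protein-coding genes. Cdkn1c encodes p57 and Cdkn2d encodes p19INK4d. Of 21 genes of pocket proteins, other E2F factors, MuvB subunits and related regulators, 21 had both marks and 14 had Runx3 in the promoter. The Runx3 share was 27.1% of all protein-coding genes and 46.2% of open and acetylated ones. Genes with it included E2f7, E2f8, Lin37, Lin52 and Lin54. Those without it were Rb1, Rbl1 and Rbl2, the retinoblastoma family, and E2f4, E2f6, Tfdp1 and Lin9. Within the body or 10 kb, Rb1, Rbl2 and E2f4 did have a Runx3 peak. Isl1 peaks were in the promoters of Cdkn2d, Rb1 and Lin37. The difference between the groups was not tested.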
